A study of Mus musculus with 9 samples.

Results

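The 10 genes described here encode leukaemia inhibitory factor (Lif), the receptor chains Lifr, Il6st and Osmr, the transcription factor Stat3, and 5 genes known as direct or early targets of STAT3: Socs3, Bcl3, Pim1, Pim3 and Junb. They were taken by gene name from a count table of 54878 rows, and each of the 10 names had 1 row. Of the 10, 9 passed the filter on low counts and were tested. Osmr did not pass. Stat3, Socs3 and Bcl3 were several fold higher in the cells grown with LIF than in both other cell types, whereas Lifr, Pim1 and Pim3 were highest in the cells grown with BMP4.

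LIF is a secreted cytokine of the interleukin-6 family. It binds LIFR, which pairs with the shared signalling chain gp130, the product of Il6st. The kinases bound to the receptor phosphorylate STAT3, which enters the nucleus and switches on its targets. Among these targets Socs3 encodes an inhibitor that binds gp130 and the kinases and so closes a negative feedback loop. In mouse embryonic stem cells this pathway maintains self-renewal, while stem cells of the postimplantation epiblast depend on Activin and FGF.

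The cells came from Sv129 x GOF/GFP F1 mice, and each cell type gave 3 libraries. ALSC were grown with Activin A and LIF and had a passage number of 20 to 25. ABSC were grown with Activin A and BMP4, had a passage number of 25 to 30, and carry a label that compares them to trophoblast stem cells. AFSC were grown with Activin A and bFGF, had a passage number of 15 to 20, came from blastocysts, and carry a label that compares them to epiblast stem cells. ALSC and ABSC had been made from AFSC by repeated passage in the other medium. The recipe with LIF stands in the labels under the abbreviation of the ABSC medium, and it was read here as that of ALSC. Cell type and passage cannot be told apart, and neither can cell type and RNA kit, since a second kit is named for ALSC alone. The labels do not say whether the 3 libraries of a type are separate cultures or lines, so p-values measure the spread between these libraries, which may be technical.

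Total counts per library were between 19020419 and 21627656, so that 3 counts equalled 0.138 to 0.157 CPM (counts scaled to a common library size with factors from the trimmed mean of M values). Summed levels of 9 epiblast markers were 4504 to 5161 CPM in ALSC, 4942 to 5175 CPM in ABSC and 5348 to 5449 CPM in AFSC. These sums hide differences between single markers. In edgeR at an adjusted p under 0.05, 1 marker was higher (Nanog) and 3 were lower in ALSC than in AFSC (Pou5f1, Sox2 and Pou3f1). Of all genes tested, 3.54% were higher and 3.50% lower there. In ABSC 2 were higher than in AFSC (Pou5f1 and Nanog), against 3.98% of all genes. The 5 lower in ABSC were Sox2, Otx2, Fgf5, Pou3f1 and Dnmt3b, against 4.0% of all genes. Fgf5 averaged 147 CPM in ALSC, 16.3 CPM in ABSC and 189 CPM in AFSC. Its difference between ALSC and AFSC did not pass (adjusted p = 0.125, edgeR). Summed levels of 8 trophoblast stem cell markers were 162 to 299 CPM in ALSC, 403 to 481 CPM in ABSC and 193 to 260 CPM in AFSC. In ABSC the trophoblast factor Elf5 had 0 or 1 counts per library, and it had 0, 3 and 6 in ALSC and 3, 4 and 7 in AFSC. Hand1 averaged 213 CPM in ABSC, 2.08 CPM in ALSC and 0.24 CPM in AFSC. Cdx2 had 17, 123 and 120 counts in ABSC, 0, 2 and 3 in ALSC and 0, 3 and 5 in AFSC. Gata3 had 8, 21 and 15 counts in ABSC, 1, 5 and 4 in ALSC and 5, 3 and 6 in AFSC. Krt7 went the other way, at 0.89 CPM in ABSC and 2.67 CPM in both ALSC and AFSC. Tfap2c was highest in ALSC, at 18.7 CPM, with 8.64 CPM in ABSC and 3.79 CPM in AFSC. Its log2 fold change in ALSC relative to AFSC was 2.30 (adjusted p = 0.0192, edgeR). Eomes and Esrrb overlapped among the 3 types. Of 6 trophoblast markers tested, 2 were higher and 0 lower in ALSC than in AFSC, against 3.54% and 3.50% of all genes tested. Over all genes, deviations from the group mean were positively correlated between the libraries numbered 1 of the 3 cell types (0.439 to 0.526).

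Of the 9 genes tested, 4 rose in ALSC relative to AFSC (Il6st, Stat3, Socs3 and Bcl3), and 3.54% of all 16178 genes tested rose. A call is an adjusted p under 0.05 in edgeR's quasi-likelihood test, with Benjamini-Hochberg adjustment over all 16178 genes. By that test 0 of the 9 fell, against 3.50% of all genes; at an unadjusted p under 0.05 it was 1 gene, Lif, and DESeq2 also called 1. The median log2 fold change was 0.26 over the 9 genes and 0.0026 over all genes tested. With the libraries numbered 1 left out of all groups, 7 of the 10 genes differed between ALSC and AFSC, with Lif, Lifr and Osmr added, but the share of all genes called there was 25.4%, against 7.04% with all libraries. The same 4 genes kept their calls and their direction there.

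In ABSC relative to AFSC, 4 of the 9 genes rose (Lifr, Il6st, Pim1 and Pim3), against 3.98% of all genes tested. By edgeR's test 0 fell, against 4.0% of all genes; the count was also 0 at an unadjusted p under 0.05 and by DESeq2. The median log2 fold change was 0.49 over the 9 genes and -0.0043 over all genes. The count of 4 dropped to 2 without ABSC library 2, without AFSC library 2 or without AFSC library 3, where 4.03% to 4.15% of all genes were called in either direction, against 7.98% with all libraries. It was 5 without the libraries numbered 1, where 28.5% of all genes were called. The comparisons of ALSC and of ABSC with AFSC share the same 3 AFSC libraries.

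Between ALSC and ABSC, Stat3, Socs3 and Bcl3 were higher in ALSC, against 5.56% of all genes tested. Lifr, Pim1 and Pim3 were lower in ALSC, against 5.41% of all genes tested. With scaling by library size alone, the split over all genes was 1135 higher and 615 lower in place of 900 and 875, and the split of the members stayed at 3 and 3. In the test for any difference among the 3 cell types, 7 of the 9 genes passed, against 14.8% of all genes. The exceptions were Lif (adjusted p = 0.122, edgeR) and Junb (adjusted p = 0.342, edgeR).

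**Figure D1:**
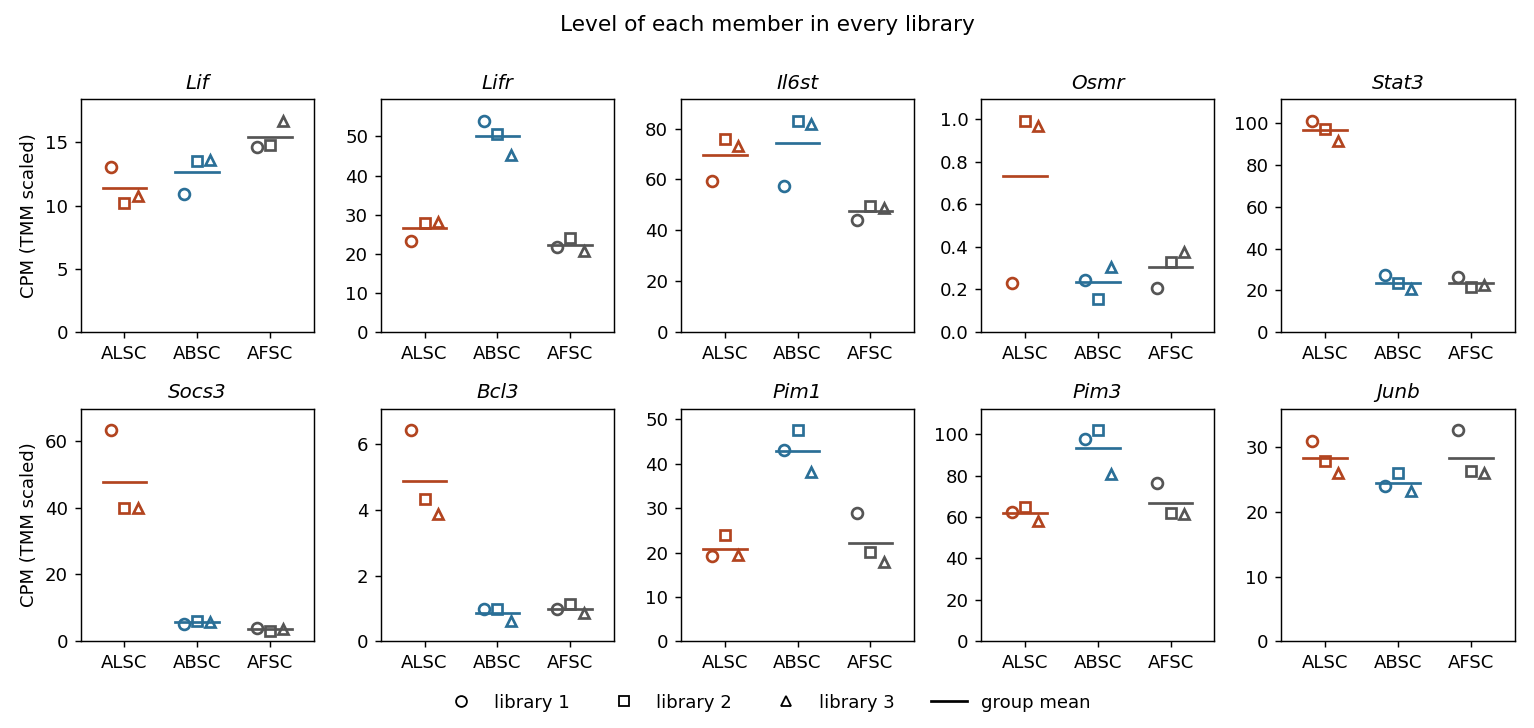
Level of each of the 10 genes in every library, in CPM on a linear axis from 0, with ALSC, ABSC and AFSC from left to right. Symbols give the library number and lines the mean of 3 libraries. Stat3, Socs3 and Bcl3 stand high in the 3 ALSC libraries, and Lifr, Pim1 and Pim3 in the 3 ABSC libraries.

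Lif, the ligand gene (chromosome 11 from 4257557 to 4272514, GRCm38), was expressed by all 3 cell types. Its levels were 13.1, 10.2 and 10.8 CPM in ALSC, 10.9, 13.5 and 13.6 CPM in ABSC, and 14.6, 14.8 and 16.7 CPM in AFSC. All AFSC libraries were above all others, but the difference did not pass the test. The log2 fold change was -0.44 in ALSC relative to AFSC (SE 0.14, adjusted p = 0.0975, edgeR) and -0.28 in ABSC relative to AFSC (SE 0.14, adjusted p = 0.304, edgeR). With the library number as a replicate block, the ALSC value was -0.43 and passed (adjusted p = 0.0233, edgeR).

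Lifr, the LIF-binding receptor chain (chromosome 15 from 7090614 to 7197489), had 23.4, 27.9 and 28.2 CPM in ALSC, 54.0, 50.7 and 45.2 CPM in ABSC, and 21.6, 24.1 and 20.8 CPM in AFSC. The ABSC libraries stood above all others, while ALSC and AFSC overlapped. Lifr was 2.25-fold higher in ABSC than in AFSC, a log2 fold change of 1.17 (SE 0.11, 95% interval 0.93 to 1.41, adjusted p = 0.000155, edgeR). In ALSC relative to ABSC the log2 fold change was -0.92 (SE 0.11, adjusted p = 0.000638, edgeR). In ALSC relative to AFSC it was 0.26 (95% interval 0.01 to 0.50, adjusted p = 0.205, edgeR). The cells grown with LIF thus did not have the highest level of its receptor mRNA.

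Il6st, which encodes gp130 (chromosome 13 from 112464070 to 112510086), had 59.5, 76.0 and 73.0 CPM in ALSC, 57.4, 83.1 and 82.0 CPM in ABSC, and 44.2, 49.6 and 48.9 CPM in AFSC. Both types grown without bFGF lay above AFSC and overlapped each other. Il6st rose by 0.55 on the log2 scale in ALSC relative to AFSC (SE 0.14, adjusted p = 0.0487, edgeR) and by 0.64 in ABSC relative to AFSC (SE 0.14, adjusted p = 0.0219, edgeR). These calls are less firm than those of Lifr. That in ALSC was lost in 9 of 17 alternatives, among them leaving out ALSC 2, ALSC 3, ABSC 2, ABSC 3 or any AFSC library, where the adjusted p was 0.0628 to 0.147 (edgeR). That in ABSC was lost without ABSC 2, ABSC 3 or any AFSC library, where the adjusted p was 0.0713 to 0.0978 (edgeR). The library numbered 1 was the lowest of its group in all 3 cell types.

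Osmr, the chain that pairs with gp130 for oncostatin M (chromosome 15 from 6813577 to 6874969), was close to the detection floor. It had 5, 19 and 19 counts in ALSC, 5, 3 and 6 counts in ABSC, and 4, 7 and 8 counts in AFSC. ALSC libraries 2 and 3 were the highest, and ALSC library 1 lay within the other cell types. Without ALSC library 1 it entered the test, and its log2 fold change was 1.66 in ALSC relative to AFSC (adjusted p = 0.0434, edgeR) and 2.02 in ALSC relative to ABSC (adjusted p = 0.0168, edgeR). Over all alternatives in which it entered the test, the adjusted p was 0.0267 to 0.411 for ALSC relative to AFSC and 0.00431 to 0.308 for ALSC relative to ABSC. It passed there without ALSC library 1 and without all libraries numbered 1.

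Compared per length, in CPM per kilobase of the deposited gene length, the receptor chains kept the order Il6st, Lifr, Osmr in every cell type. Lifr had 0.393 ± 0.014 times the level of Il6st in ALSC, 0.722 ± 0.216 times in ABSC and 0.481 ± 0.038 times in AFSC (SD, n = 3). All 3 ABSC ratios lay above those of both other types, and their range was 0.568 to 0.969. Cntfr, the ciliary neurotrophic factor receptor chain that signals with LIFR and gp130, was above Il6st in every cell type, at 8.36 CPM per kilobase in ALSC, 13.4 in ABSC and 13.2 in AFSC.

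**Figure D2:**
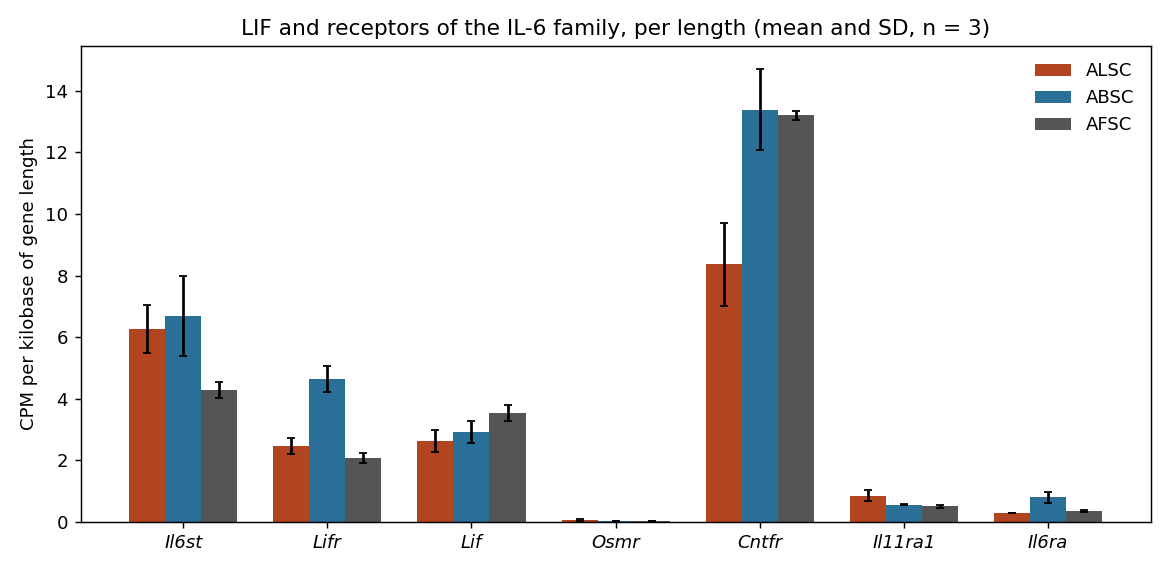
Mean level per kilobase of gene length of Lif, its receptor chains and other receptors of the interleukin-6 family, in CPM per kilobase on an axis from 0. Bars are ALSC, ABSC and AFSC from left to right, and error bars are the SD of 3 libraries. Lifr is highest in ABSC (4.64), Osmr is near 0, and Cntfr is lowest in ALSC (8.36).

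Stat3 (chromosome 11 from 100885098 to 100939540), the transcription factor that carries the LIF signal, had 101, 97.2 and 91.3 CPM in ALSC, 27.3, 23.4 and 20.4 CPM in ABSC, and 26.6, 21.7 and 22.5 CPM in AFSC. The ALSC libraries stood far above all others, and ABSC and AFSC overlapped. Stat3 was 4.10-fold higher in ALSC than in AFSC, a log2 fold change of 2.03 (SE 0.12, 95% interval 1.77 to 2.30, adjusted p = 5.3e-05, edgeR). It was 4.08-fold higher in ALSC than in ABSC (log2 fold change 2.03, SE 0.12, adjusted p = 8e-06, edgeR). In ABSC relative to AFSC the log2 fold change was 0.01 (95% interval -0.25 to 0.27, adjusted p = 0.987, edgeR), and its sign changed with the scaling. These are mRNA levels, and phosphorylated STAT3 protein was not measured. In bulk libraries, fewer cells of a type and less RNA per cell cannot be told apart.

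Stat3, Socs3 and Bcl3 were the genes higher in ALSC than in both other types, so the 250 bases before their RefSeq starts are shown, read on the minus strand from 5′ to 3′ in GRCm38.p6. Capitals mark the letters TTCNNNGAA, the form of site that STAT factors are known to bind, which reads the same on both strands.
Socs3, chr11:117969367-117969616: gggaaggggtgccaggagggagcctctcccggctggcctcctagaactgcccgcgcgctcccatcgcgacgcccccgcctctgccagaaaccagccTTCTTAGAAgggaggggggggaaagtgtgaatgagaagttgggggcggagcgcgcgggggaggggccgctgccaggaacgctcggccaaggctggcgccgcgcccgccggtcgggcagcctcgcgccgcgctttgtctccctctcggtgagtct
Stat3, chr11:100939541-100939790: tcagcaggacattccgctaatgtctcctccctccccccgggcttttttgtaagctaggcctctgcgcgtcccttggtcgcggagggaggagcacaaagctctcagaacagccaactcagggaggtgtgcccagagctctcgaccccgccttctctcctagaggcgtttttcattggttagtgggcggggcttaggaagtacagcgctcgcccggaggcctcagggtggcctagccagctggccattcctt
Bcl3, chr7:19822756-19823005: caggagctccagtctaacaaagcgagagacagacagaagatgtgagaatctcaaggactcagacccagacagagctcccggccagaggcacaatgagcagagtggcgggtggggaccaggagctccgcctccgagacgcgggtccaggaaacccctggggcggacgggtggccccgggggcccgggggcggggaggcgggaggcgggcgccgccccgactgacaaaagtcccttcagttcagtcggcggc
The Socs3 window held 1 match, TTCTTAGAA, which begins 154 bases before the start, and those of Stat3 and Bcl3 held none. The Socs3 window lies inside the gene interval of the count table. Its start lies 180 bases upstream of the GENCODE coding transcript start, and the bases between these starts were not searched. Among all 32851 windows of this length 7.02% held a match. The 10 genes had 12 windows, and 1 of these held a match. A match describes the letters only, and binding of STAT3 was not measured here.

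Socs3 (chromosome 11 from 117966079 to 117970047), the feedback inhibitor, had the largest log2 fold change of the 9 genes tested in ALSC relative to AFSC and to ABSC. It had 63.3, 39.8 and 40.0 CPM in ALSC, 5.11, 6.07 and 5.77 CPM in ABSC, and 4.07, 3.21 and 3.52 CPM in AFSC. The 3 cell types did not overlap, and ALSC library 1 was the highest of all. Socs3 was 13.3-fold higher in ALSC than in AFSC, a log2 fold change of 3.73 (SE 0.21, 95% interval 3.27 to 4.19, adjusted p = 5.3e-05, edgeR). Relative to ABSC the log2 fold change in ALSC was 3.08 (SE 0.20, adjusted p = 1.4e-05, edgeR). In ABSC relative to AFSC it was 0.65 (SE 0.21, 95% interval 0.18 to 1.12, adjusted p = 0.0992, edgeR), which did not pass. This last difference passed with the replicate block (0.66, adjusted p = 0.0236, edgeR) and with 4 other alternatives, over a range of adjusted p from 0.00014 to 0.283.

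Bcl3 (chromosome 7 from 19808462 to 19822770), an atypical member of the inhibitor of NF-kappaB family that acts as a nuclear cofactor, had 6.43, 4.33 and 3.87 CPM in ALSC, 0.982, 0.994 and 0.607 CPM in ABSC, and 0.979, 1.13 and 0.846 CPM in AFSC. All 3 ALSC libraries were above all others, and ABSC and AFSC overlapped. Bcl3 was 4.93-fold higher in ALSC than in AFSC (log2 fold change 2.30, SE 0.29, adjusted p = 0.0019, edgeR). Relative to ABSC the log2 fold change was 2.50 (SE 0.29, adjusted p = 0.000615, edgeR). The counts behind it were 76 to 140 in ALSC, 12 to 20 in ABSC and 18 to 24 in AFSC. The antisense gene Gm16174 overlaps Bcl3 by 2073 bases, and it had 5 to 9 counts in ALSC and 0 or 1 elsewhere. The libraries do not mark strand, so reads of overlapping genes cannot be told apart.

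Pim1 (chromosome 17 from 29490812 to 29496111) encodes a serine/threonine kinase that promotes survival. Its levels were 19.2, 23.9 and 19.5 CPM in ALSC, 43.1, 47.6 and 38.1 CPM in ABSC, and 28.8, 20.1 and 17.8 CPM in AFSC. The ABSC libraries stood above all others, and ALSC lay within the range of AFSC. Pim1 was 1.93-fold higher in ABSC than in AFSC (log2 fold change 0.95, SE 0.17, adjusted p = 0.00814, edgeR), and in ALSC relative to ABSC its log2 fold change was -1.04 (SE 0.18, adjusted p = 0.00457, edgeR). The value in ALSC relative to AFSC was -0.09 (95% interval -0.48 to 0.30, adjusted p = 0.822, edgeR). The noncoding gene Gm26885 overlaps Pim1 by 1114 bases and had 1 to 16 counts per library.

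Pim3 (chromosome 15 from 88862186 to 88865726), a related kinase, had 62.6, 64.9 and 58.2 CPM in ALSC, 97.5, 102 and 80.9 CPM in ABSC, and 76.6, 61.9 and 61.6 CPM in AFSC. As for Pim1, ABSC lay above all others, and ALSC and AFSC overlapped. Pim3 was 1.40-fold higher in ABSC than in AFSC (log2 fold change 0.49, SE 0.11, adjusted p = 0.0224, edgeR). That call was lost without ABSC 2, AFSC 2 or AFSC 3, where the adjusted p was 0.0981 to 0.105 (edgeR). In ALSC relative to ABSC the log2 fold change was -0.59 (SE 0.11, adjusted p = 0.00731, edgeR), and in ALSC relative to AFSC it was -0.11 (95% interval -0.35 to 0.14, adjusted p = 0.636, edgeR). Pim2, of the same kinase family, went the other way, with 804 ± 26.1 CPM in ALSC, 597 ± 110 CPM in ABSC and 864 ± 85.2 CPM in AFSC (SD). It was called lower in ABSC than in AFSC (-0.69 to -0.45 over the 17 alternatives), a call lost in 4 of them. Its call as higher in ALSC than in ABSC was lost in 9 of 17. The summed trophoblast markers were also highest in ABSC, through Hand1 alone. Of the 6 markers tested, 2 were higher and 1 lower in ABSC than in AFSC, against 3.98% and 4.0% of all genes. In ALSC 2 were higher and 0 lower than in AFSC, against 3.54% and 3.50% of all genes. Without Hand1 the other 7 summed to 160 to 297 CPM in ALSC, 159 to 272 CPM in ABSC and 193 to 260 CPM in AFSC. Their part in the values of Lifr, Pim1 and Pim3 was not tested.

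Junb (chromosome 8 from 84974484 to 84978718), a subunit of the AP-1 transcription factor and an early LIF response gene, had 31.1, 27.9 and 26.0 CPM in ALSC, 24.1, 26.0 and 23.3 CPM in ABSC, and 32.7, 26.4 and 26.0 CPM in AFSC. All 3 ranges overlapped. The log2 fold change in ALSC relative to AFSC was -0.002, with a 95% interval of -0.26 to 0.25 and a sign that changed with the scaling. Junb overlaps Prdx2, a gene with 6613 to 8297 counts per library, by 351 bases.

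**Figure D3:**
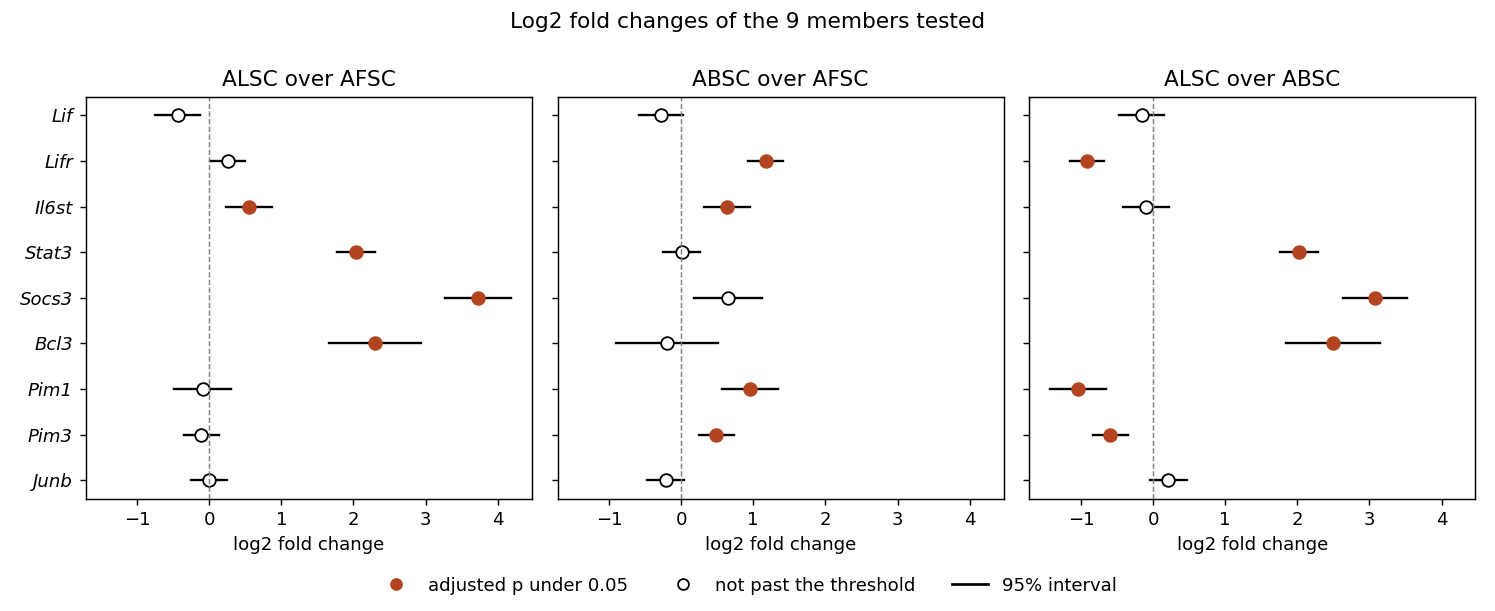
Log2 fold changes of the 9 genes tested in the 3 comparisons, with 95% intervals as bars. Filled points passed an adjusted p of 0.05 in edgeR. Stat3, Socs3 and Bcl3 lie at 2.03, 3.73 and 2.30 in ALSC over AFSC, whereas Lifr and Pim1 lie at 1.17 and 0.95 in ABSC over AFSC.

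Per kilobase, Pim3 was the highest of the 10 genes in every cell type, at 25.5 ± 1.39 in ALSC, 38.5 ± 4.60 in ABSC and 27.5 ± 3.52 CPM per kilobase in AFSC (SD, n = 3). Socs3 followed it in ALSC at 16.5 ± 4.67 CPM per kilobase, but was the eighth in ABSC at 1.95 ± 0.17 and in AFSC at 1.25 ± 0.15. Stat3 was the fourth in ALSC at 10.1 ± 0.53, the seventh in ABSC at 2.49 ± 0.36 and the sixth in AFSC at 2.48 ± 0.28 CPM per kilobase. Bcl3 and Osmr closed the order in all 3 types. Neighbours in the order did not overlap between libraries except Lif and Lifr and also Lifr and Bcl3 in ALSC, and Lif and Stat3 in ABSC. The order of Pim1 and Il6st in ALSC depends on the gene length. With the GENCODE exon length of Pim1, 3362 bases in place of 2638, Pim1 had 6.20 ± 0.79 and Il6st 6.26 ± 0.79 CPM per kilobase in ALSC (SD, n = 3), and the libraries overlapped.

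Among the kinases and other STAT factors reported here, all calls relative to AFSC were in ALSC. Of 4 JAK kinases tested, Jak2 and Jak3 rose in ALSC relative to AFSC, against 3.54% of all genes tested. Jak1 (log2 fold change -0.14, adjusted p = 0.570, edgeR) and Tyk2 (0.32, adjusted p = 0.155, edgeR) did not pass. Jak3 had 37.3 ± 5.54 CPM in ALSC, 17.6 ± 2.21 CPM in ABSC and 19.7 ± 0.519 CPM in AFSC (SD, n = 3), a log2 fold change of 0.92 in ALSC relative to AFSC (SE 0.13, adjusted p = 0.00297, edgeR). Jak3 was also higher in ALSC than in ABSC (log2 fold change 1.08, adjusted p = 0.000672, edgeR). Jak2, which acts at gp130, rose by 0.65 in ALSC relative to AFSC (adjusted p = 0.0126, edgeR), and that call was lost without AFSC 2 or AFSC 3. With the replicate block 3 of the 4 were higher in ALSC than in AFSC, against 11.1% of all genes, and 3 were higher in ALSC than in ABSC in place of 1, against 14.3% of all genes. In ABSC relative to AFSC 0 of the 4 kinases passed in edgeR, at an unadjusted p under 0.05 or in DESeq2. The median log2 fold change of the 4 was 0.48 in ALSC relative to AFSC and -0.02 in ABSC relative to AFSC.

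Of 5 other STAT genes reported here, Stat5a rose in ALSC relative to AFSC, against 3.54% of all genes tested. Stat5a had 4.78 ± 2.36 CPM in ALSC, 1.43 ± 0.51 CPM in ABSC and 1.57 ± 0.06 CPM in AFSC, and it rose by 1.61 (adjusted p = 0.0264, edgeR). The call was lost when any AFSC library was left out. Stat5a overlaps Stat3 by 72 bases and had 60 to 163 counts in ALSC and 21 to 41 elsewhere. With the replicate block, 3 of the 5 STAT genes were higher in ALSC than in AFSC, against 11.1% of all genes with the block. In ABSC relative to AFSC 0 of the 5 passed in edgeR, at an unadjusted p under 0.05 or in DESeq2.

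Among 15 other inhibitors of the pathway, Socs1 stood out in ABSC. Socs1, an inhibitor of JAK kinases, had 6.96 ± 1.53 CPM in ALSC, 19.4 ± 3.36 CPM in ABSC and 5.68 ± 1.73 CPM in AFSC (SD, n = 3). It rose by 1.78 in ABSC relative to AFSC (SE 0.24, adjusted p = 0.00152, edgeR), and in ALSC relative to ABSC its log2 fold change was -1.48 (adjusted p = 0.00342, edgeR). Of the 2 feedback inhibitors, Socs3 was thus highest in ALSC and Socs1 in ABSC. Of the 15, 0 passed in edgeR in ALSC relative to AFSC; 1 was higher and 3 were lower at an unadjusted p under 0.05, and DESeq2 called 2 lower. With the replicate block 1 was higher and 3 were lower in ALSC than in AFSC, and 3 were higher and 2 lower in ABSC than in AFSC. With the block, 11.1% of all genes were higher and 11.1% lower in ALSC than in AFSC, and 9.58% were higher and 9.78% lower in ABSC than in AFSC.

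The other known LIF and STAT3 targets did not move in a single direction. Of 17 tested, 2 rose and 3 fell in ALSC relative to AFSC, against 3.54% and 3.50% of all genes. At an unadjusted p under 0.05 it was 5 and 5, and DESeq2 called 3 and 3. In ABSC relative to AFSC 2 rose and 2 fell, against 3.98% and 4.0% of all genes. There it was 3 and 2 at an unadjusted p under 0.05, and 2 and 2 by DESeq2. In ALSC relative to ABSC 2 were higher and 3 lower, against 5.56% and 5.41% of all genes. The unadjusted counts there were 4 and 4, and DESeq2 called 3 and 3. Tfcp2l1, a STAT3 target that sustains self-renewal in mouse embryonic stem cells, had 109 ± 36.5 CPM in ALSC, 25.9 ± 3.92 CPM in ABSC and 21.3 ± 3.49 CPM in AFSC. It rose by 2.35 in ALSC relative to AFSC (SE 0.25, adjusted p = 0.000878, edgeR). Myc, which encodes a growth regulator, had 56.5 ± 9.10 CPM in ALSC, 114 ± 11.2 CPM in ABSC and 109 ± 9.24 CPM in AFSC, and its log2 fold change in ALSC relative to AFSC was -0.94 (adjusted p = 0.00217, edgeR). Trib1, which encodes a pseudokinase, had a log2 fold change of -0.99 in ALSC (adjusted p = 0.00256, edgeR) and of -0.78 in ABSC (adjusted p = 0.00535, edgeR), both relative to AFSC. Klf5, a transcription factor of the self-renewal network, rose by 0.85 and Ifitm3, an interferon-induced membrane protein gene, by 0.94 in ABSC relative to AFSC (adjusted p = 0.0063 for both, edgeR). Klf5 also rose by 0.63 in ALSC relative to AFSC (adjusted p = 0.0324, edgeR), a call lost in 6 of 17 alternatives. The log2 fold change of Ifitm3 in ALSC relative to AFSC was 0.53, which did not pass in the fit of all libraries but passed in 6 of 17 alternatives, the replicate block among them. With the replicate block the counts were 3 higher and 6 lower in ALSC relative to AFSC, against 11.1% and 11.1% of all genes. They were 4 higher and 4 lower in ABSC relative to AFSC, against 9.58% and 9.78% of all genes.

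Of 4 other ligand genes reported here, 0 passed in any of the 3 comparisons in edgeR, at an unadjusted p under 0.05 or in DESeq2. Of 3 other receptor chains tested, Cntfr was lower in ALSC than in AFSC (log2 fold change -0.66, adjusted p = 0.0114, edgeR), a call lost without AFSC 2 or AFSC 3. Il11ra1 went the other way, with a log2 fold change of 0.76 that did not pass (adjusted p = 0.05455, edgeR). At an unadjusted p under 0.05, by DESeq2 and with the replicate block, 1 of the 3 was higher and 1 lower in ALSC than in AFSC. With the block, 11.1% of all genes were higher and 11.1% lower. The interleukin-6 receptor gene Il6ra had 2.48 ± 0.03 CPM in ALSC, 6.81 ± 1.48 CPM in ABSC and 2.95 ± 0.29 CPM in AFSC. It rose by 1.20 in ABSC relative to AFSC (adjusted p = 0.00516, edgeR).

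**Figure D4:**
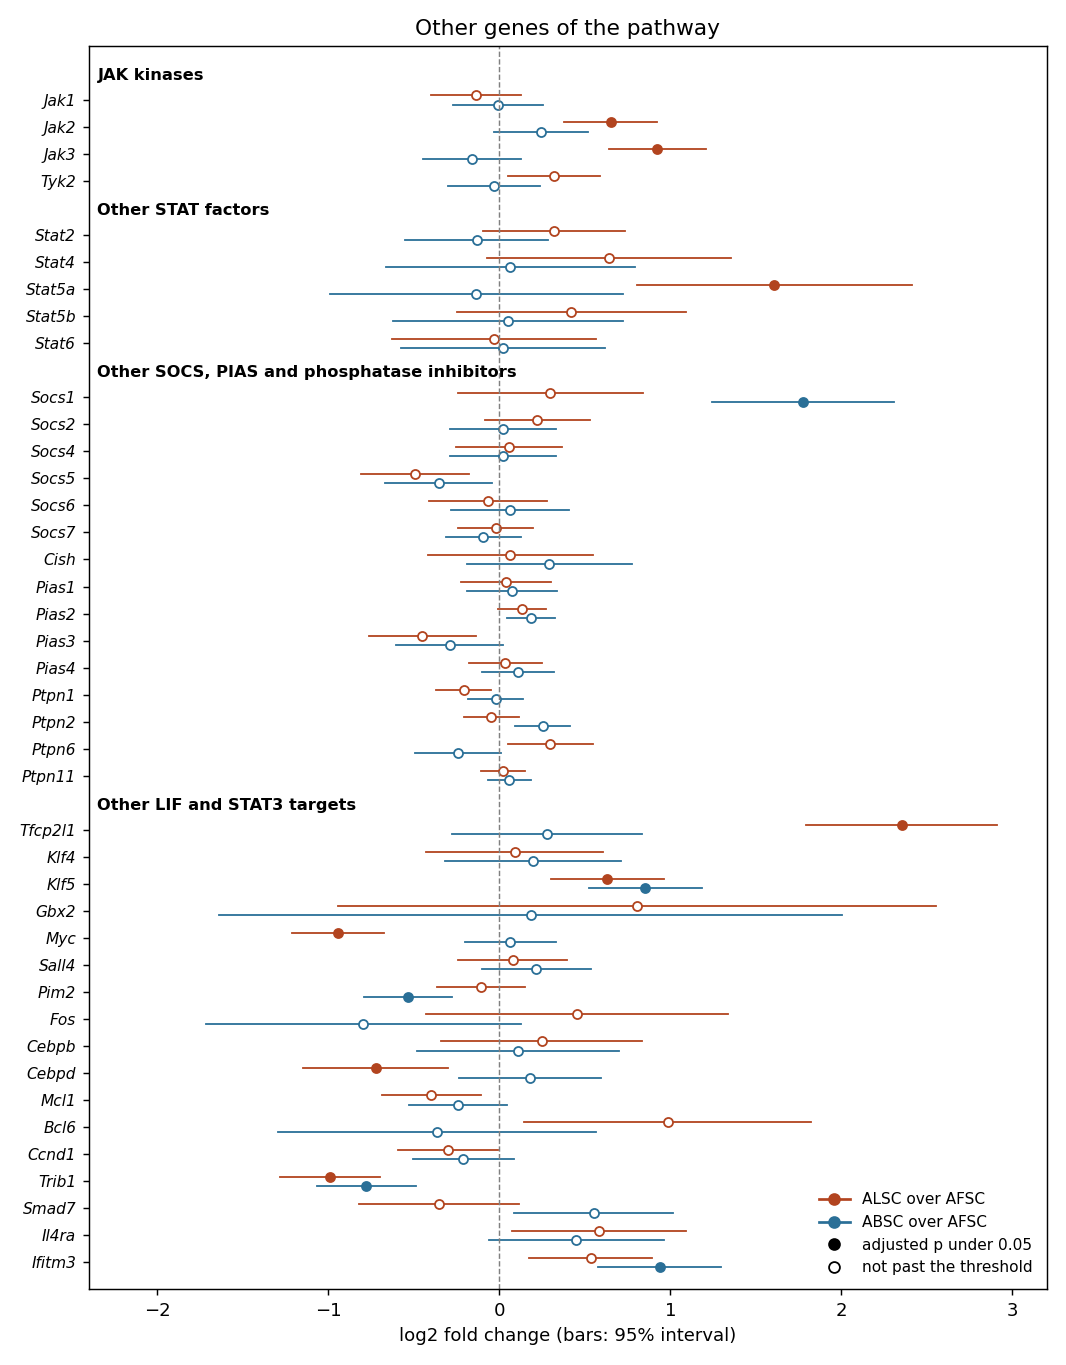
Log2 fold changes with 95% intervals of JAK kinases, other STAT factors, inhibitors and other targets, for ALSC over AFSC and ABSC over AFSC. Filled points passed an adjusted p of 0.05 in edgeR. Jak3 (0.92), Stat5a (1.61) and Tfcp2l1 (2.35) are high in ALSC, and Socs1 (1.78) is high in ABSC.

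Genes whose centred log2 CPM followed a member most closely over the 9 libraries were sought among 10731 genes with a mean of at least 5 CPM. Tfeb and Apobec3 came nearest to Socs3, with root mean square differences of 0.37 and 0.51 on the log2 scale. Tfeb had 13.1 ± 1.52 CPM in ALSC, 2.11 ± 0.60 CPM in ABSC and 1.52 ± 0.11 CPM in AFSC. Stat3 itself was the third (0.71) and Upp1 the fourth (0.76). Vill (0.27), Atp1b2 (0.31), Upp1 (0.38) and Zfp516 (0.38) came nearest to Stat3. Cdc42ep5 (0.13), Lrrc8b (0.13), Pdha1 (0.15) and Elovl7 (0.15) came nearest to Lifr, and Pdha1 had 161 ± 3.48 CPM in ALSC, 278 ± 23.2 CPM in ABSC and 136 ± 2.44 CPM in AFSC.

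In all 3 cell types the library numbered 1 was below the mean of the libraries numbered 2 and 3 for Il6st, by a log2 difference of -0.32 in ALSC, -0.52 in ABSC and -0.16 in AFSC. It was above that mean for Stat3, by 0.11 in ALSC, 0.32 in ABSC and 0.27 in AFSC, and likewise for Bcl3 and Pim3. For the other members the sign differed between cell types. Socs3 in the library numbered 1 differed from the mean of the libraries numbered 2 and 3 by 0.67 in ALSC, -0.21 in ABSC and 0.27 in AFSC. For Bcl3 the differences were 0.65 in ALSC, 0.33 in ABSC and 0.003 in AFSC. Without the libraries numbered 1, the log2 fold change of Socs3 in ALSC relative to AFSC was 3.56 and that of Bcl3 was 2.04, and both passed (adjusted p = 1.9e-17 and 3.8e-06, edgeR). That fit was added after the data were seen and called 25.4% of all genes, against 7.04% with all libraries. Its p-values measure the spread between the libraries numbered 2 and 3 only. Primitive endoderm markers, summed over 6 genes, were 14.2 to 21.1 CPM in ALSC, 6.07 to 8.11 CPM in ABSC and 10.9 to 12.6 CPM in AFSC. Of the 5 tested, 4 were higher in ALSC than in ABSC, against 5.56% of all genes. Relative to AFSC, 0 of the 5 passed in ALSC in edgeR or in DESeq2, and 2 had an unadjusted p under 0.05 in edgeR. Their part in the values of Stat3, Socs3 and Bcl3 was not tested.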

How the data were processed

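Polyadenylated RNA was made into 9 libraries with a kit that keeps no strand information, per the labels' protocols. The authors deposited raw read counts per gene; HISAT2 2.0.5 and featureCounts 1.5.0-p3 are named in the submitters' processing notes. Those notes give mm9, but 53499 of 54409 shared gene IDs had the coordinates of GRCm38 (GENCODE M21), as did 9 of the 10 members (not Pim1), so coordinates are given as GRCm38. The labels name different sequencer models. Rows without a gene name (346, 0.208% to 0.227% of counts) were left out.

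Counts were tested in R 4.3.3 with edgeR 4.0.16: filterByExpr (minimum count 10, minimum total 15), trimmed mean of M values, robust quasi-likelihood fit of all 9 libraries with 6 residual degrees of freedom, 2-sided F tests, Benjamini-Hochberg adjustment over 16178 genes. The SE was computed as the absolute log2 fold change divided by the root of F. Levels are CPM, given as mean ± SD (n = 3). The floor of 3 counts covers counting error only. Scripts were tested on simulated data. Promoter windows are from RefSeq; the Socs3 start used lies 180 bases upstream of the GENCODE coding transcript start.

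Same-numbered libraries deviated together (correlations of 0.439 to 0.526 for number 1, 0.178 to 0.257 for number 2 and 0.199 to 0.324 for number 3). All were above 0.1, the threshold used here to treat numbers as pairs. The reported tests did not use this pairing, and the replicate block, which does, is given as an alternative. Numbers 2 and 3 also correlated with each other (0.201 to 0.255) and number 1 did not with either (-0.394 to -0.280), so number 1 alone stood apart; what a number stands for is not given in the sources used here. The members and lists were chosen with earlier results of these data known. Named genes are the 10 members, called genes of the pathway lists (at most 4 per list and comparison, by size of change), and the 4 genes nearest to Socs3, Stat3 and Lifr; other genes were named after their values were seen. Alternatives were other scalings and filters, DESeq2 1.42.0, the replicate block, pairs of groups alone and leaving out each library; leaving out the libraries numbered 1 and the GENCODE exon length were added after seeing the data. Some genes of the pathway lists are not reported here and were left out of the list counts.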

Additional observations from a re-analysis of the deposited data

How the results depend on the processing

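Each fold change of the 10 genes was recomputed under up to 17 alternatives. The calls of Stat3, Socs3 and Bcl3 in ALSC, of Lifr and Pim1 in ABSC relative to AFSC, and all 6 calls between ALSC and ABSC held in all 17; those of Il6st and of Pim3 relative to AFSC did not, as given in the report. Il6st in ALSC relative to AFSC was also lost with relative log expression factors (0.54, adjusted p = 0.0538, edgeR) and without a filter (0.55, adjusted p = 0.0574, edgeR). The replicate block added Lif (ALSC) and Socs3 (ABSC) and changed no other fold change call of the 10 genes; over all genes it raised the calls to 3590 in ALSC relative to AFSC, 3132 in ABSC relative to AFSC, 4605 in ALSC relative to ABSC and 5992 for any difference, against 1139, 1291, 1775 and 2395 without it. With libraries numbered 2 and 3 only, these counts were 4122, 4622, 5225 and 7121, and 7 members were called in ALSC relative to AFSC; with the 6 libraries of ALSC and ABSC alone, 1041 genes were called. Leaving out each library gave 345 to 1522 calls for ALSC relative to AFSC, 667 to 1723 for ABSC relative to AFSC, 846 to 2337 for ALSC relative to ABSC and 1395 to 3048 for any difference, with 3 to 5, 2 to 5, 6 to 7 and 6 to 8 members called. The cause was not tested.

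In 21 recomputed fold changes the sign changed, and 0 of these were called by edgeR or DESeq2 there or in the reported fit. The largest recomputed value among them was 0.19, for Pim1 in ALSC relative to AFSC. The largest reported value in size was -0.24, for Nfkbiz in ABSC relative to AFSC. Leaving out each library gave, in ABSC relative to AFSC, -0.305 to 0.0062 for Bcl3, -0.463 to 0.043 for Stat5a, -0.043 to 0.101 for Cntfr, -0.015 to 0.127 for Myc and -0.100 to 0.108 for Stat3. It gave -0.254 to 0.0014 for Il6st in ALSC relative to ABSC. In ALSC relative to AFSC it gave -0.075 to 0.107 for Junb, -0.234 to 0.132 for Pim1 and -0.091 to 0.0034 for Ptpn2. Library size alone gave -0.0047 for Cntfr and -0.015 for Stat3 in ABSC, and 0.044 for Junb in ALSC, relative to AFSC. Libraries numbered 2 and 3 alone gave 0.0036 for Nfkbiz and -0.0082 for Stat3 in ABSC, and 0.037 for Junb and 0.19 for Pim1 in ALSC, relative to AFSC. Depth limits Osmr most, at 3 to 19 counts per library.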

Other observations

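Relatives of Bcl3 and Junb in the NF-kappaB and AP-1 families were also measured. Nfkb1, which encodes the p50 precursor that Bcl3 protein is known to bind, had 66.2 ± 4.33 CPM in ALSC, 100.3 ± 7.29 CPM in ABSC and 81.6 ± 1.26 CPM in AFSC (SD, n = 3). The 3 cell types did not overlap, and its log2 fold change was -0.60 in ALSC relative to ABSC (SE 0.07, adjusted p = 0.000783, edgeR). Of the 9 NF-kappaB genes tested, 0 rose and 2 fell in ALSC relative to AFSC by edgeR, against 3.54% and 3.50% of all genes. At an unadjusted p under 0.05 it was 2 and 3, and DESeq2 called 1 and 2. The falls are those of Nfkb1 (log2 fold change -0.30), lost in 7 of 17 alternatives, and of Nfkbib (-0.29), lost in 11 of 17. With the replicate block 1 gene was higher and 2 were lower, against 11.1% and 11.1% of all genes. Fosl1, a FOS-related AP-1 subunit, had 3.00 ± 0.89 CPM in ALSC, 3.52 ± 0.44 CPM in ABSC and 6.10 ± 0.31 CPM in AFSC. It fell in ALSC relative to AFSC (log2 fold change -1.02, SE 0.22, adjusted p = 0.0224, edgeR), a call lost in 5 of 17 alternatives. Its log2 fold change in ABSC relative to AFSC was -0.89 to -0.73 over the 17 alternatives. That difference did not pass in the fit of all libraries but passed in 6 of 17, DESeq2 and the replicate block among them.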
